A study of Danio rerio with 12 samples.

Results

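The Zic genes encode transcription factors with a block of C2H2 zinc fingers related to those of the Gli proteins. In vertebrate embryos they are known for their roles in the early neural plate, at its border with the epidermis where neural crest forms, in the dorsal neural tube, and in closure of the neural tube and division of the forebrain. Many of them lie in the genome as divergent neighbours, and the duplicated genome of teleost fish carries extra copies. The neighbours zic2a and zic5 are known in zebrafish to act downstream of Wnt signals in growth of the midbrain, and human ZIC2 is a gene of holoprosencephaly, in which the forebrain does not divide.

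The genes described are the 6 Zic members zic1, zic2a, zic2b, zic4, zic5 and zic6. Their rows were taken by symbol from both expression tables of the series, and all 6 were present among 14850 genes. One further row whose symbol starts with zic was not used here, so that the members are not every Zic gene. The tables give their transcripts as NM_130933 for zic1, NM_131558 for zic2a, NM_001001820 for zic2b, NM_001076612 for zic4, NM_205727 for zic5 and NM_001001837 for zic6. In the RefSeq assembly GRCz12tu, which is not the build the reads were aligned to, zic1 and zic4 were direct neighbours with 0 genes between them, as were zic2a and zic5, and zic2b and zic6 shared a chromosome with no other member.

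RNA-seq was measured on whole embryos of the Ekwill strain of zebrafish at 6hpf (hours post-fertilization, in gastrulation) and 12hpf (early segmentation). Control embryos were injected with water and phenol red, a dye, and TALE KD embryos received in the same mix morpholinos, antisense oligos that block translation or splicing, against the TALE homeodomain factors Prep1, Pbx2 and Pbx4. Each of the 4 groups had 3 libraries of pooled embryos, labelled biological replicates 1 to 3, so that n is 3 in every mean below. The morpholinos act in the whole embryo, no other control oligo was injected, and in pooled whole embryos a loss of cells of one type cannot be told apart from less RNA per cell.

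The study asked which genes depend on the TALE factors, and it showed the zic5 locus as an example of an element bound by Prep with repressive chromatin at blastula stages, the type it named a Class 4 MPAD. The sequence of the element that its primers at zic5 amplify is shown because zic5 is the member with the largest change at 12hpf, and because the study also asked about NF-Y, a factor that binds CCAAT boxes. The study listed this element among 32 Class 4 elements near a gene that its own TALE KD test found changed. The element was read from the study's sequence file on the strand given there, from build Zv9, with each CCAAT box in capitals (ATTGG, the box read on the opposite strand).

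zic5 element: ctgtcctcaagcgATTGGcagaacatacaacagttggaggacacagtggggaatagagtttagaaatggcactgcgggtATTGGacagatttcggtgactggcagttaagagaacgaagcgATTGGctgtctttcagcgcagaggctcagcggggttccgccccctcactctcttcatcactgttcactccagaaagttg

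It is 200 bases long with 51.5% G and C, and the primers span positions 36 to 144 counted from 1 at its first base. CCAAT matched 3 times on the opposite strand, at positions 14 to 18, 80 to 84 and 122 to 126. Of the study's 270 Class 4 elements, with a median length of 200 bases, 123 (45.6%) held at least 1 CCAAT on either strand and 17 (6.30%) held at least 3. The site of Prep and Meis factors called HEXA (TGACAG) had 0 matches in the zic5 element and was present in 173 (64.1%) of the Class 4 elements. The joint site of Prep and Pbx called DECA, searched by the study's pattern with its variable positions, shares letters with HEXA. The HEXA share here includes matches inside DECA sites. The study counted HEXA only in sequences without DECA, so this share is not its measure. DECA also had 0 matches and was present in 121 (44.8%). The PBX:HOX site TGATNNAT had 0 matches and was present in 62 (23.0%). These counts describe letters in a window on both strands and say nothing of binding.

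The libraries held 11884808 to 15031222 counts at 6hpf and 19783332 to 40924971 at 12hpf. Levels below are CPM, that is, counts divided by library size after edgeR's TMM factors of all 12 libraries, given as mean ± SD over 3 libraries, and they are not divided by transcript length, so levels of different genes are not compared. A gene is called changed where 2 limits, taken from the study's methods, were both met: an adjusted p of 0.01 or less in edgeR's quasi-likelihood test (Benjamini-Hochberg over all genes tested) and a change of 1.5-fold or more. Morpholinos need not lower the RNA of their target, so the targeted genes do not check the labels. Pbx2 RNA was 2.83-fold higher in TALE KD at 12hpf (adjusted p = 2.06e-05). Pbx4 (log2 fold change 0.21 ± 0.090 (SE), adjusted p = 0.172) and pknox1.1, the gene of Prep1 (0.21 ± 0.050, adjusted p = 0.0363), did not pass. At 12hpf the summed level of 3 hindbrain markers, egr2b, mafba and hoxb1a, lay between 137 and 139 CPM in control and between 20.9 and 38.2 CPM in TALE KD libraries, and all 3 were called lower. TALE KD replicate 3 stood apart at 12hpf: in 117 of the 147 genes called lower it had the highest level of the 3 TALE KD libraries. Control replicate 3 also differed more from control replicates 1 and 2 (chi-square per degree of freedom 13.5 and 13.0) than these from each other (2.68). The study's own test left out an unnamed replicate of this stage, so the fitted change of each member at this stage is also given without replicate 3 of both groups. Since replicate 3 was picked from these same values, those fits are a description and no independent support for a change.

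In control embryos the members split over the 6 hours into 4 that rose and 2 that were lower at 12hpf. Zic1, zic4, zic5 and zic6 rose between the gastrula and early segmentation, by 1.41 to 4.79 on the log2 scale, whereas zic2a and zic2b fell, by 0.49 and 1.60. In control embryos 5 of the 6 members were called between the stages, 4 higher and 1 lower. Of all 11450 genes tested 58.8% were called, 32.8% higher and 26.0% lower, so that a call between the stages is common and the members' share of calls does not set them apart.

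Zic1, a factor of the dorsal neural tube and the neural plate border, showed the largest rise. Its control libraries held 1.85, 2.07 and 1.41 CPM at 6hpf (18 to 29 counts) and 51.0, 49.6 and 47.8 CPM at 12hpf (1154 to 1372 counts). The groups did not overlap, and the fitted change was 4.79 ± 0.21 (SE) on the log2 scale (adjusted p = 1.23e-10). That change was larger in size than that of 95.1% of the genes tested.

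Zic4, the neighbour of zic1, held 1.204, 2.00 and 0.313 CPM at 6hpf and 10.7, 12.3 and 10.9 CPM at 12hpf in control embryos. The gene was thus above its gastrula level in each 12hpf library, by 3.24 ± 0.31 (SE) on the log2 scale (adjusted p = 3.47e-07). Its 6hpf level rests on only 4 to 28 counts a library, and leaving out 1 library at a time moved the change between 2.79 and 3.89. In counts within a library, zic4 stood at 22.9 ± 1.85 per 100 zic1 counts in control and 23.6 ± 0.580 in TALE KD embryos at 12hpf (exact permutation test, two-sided p = 0.6, where 3 against 3 libraries cannot go below 0.1).

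Zic5 held 4.73, 5.44 and 5.16 CPM at 6hpf and 14.4, 12.8 and 13.5 CPM at 12hpf in control embryos. All 3 later libraries lay above all 3 earlier ones, and the change was 1.41 ± 0.19 (SE) on the log2 scale (adjusted p = 1.01e-05). Zic6 was the member with the fewest counts, with 0.241, 0.572 and 0.626 CPM at 6hpf (3 to 8 counts) and 2.01, 1.76 and 2.49 CPM at 12hpf (46 to 60 counts). It rose by 2.09 ± 0.32 (SE) on the log2 scale (adjusted p = 3.63e-05).

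Zic2b was the member with the most counts. Its control libraries held 878, 981 and 943 CPM at 6hpf and 321, 307 and 295 CPM at 12hpf, a drop without overlap of 1.60 on the log2 scale (SE 0.064, adjusted p = 5.54e-11). Its duplicate zic2a held 133, 138 and 146 CPM at 6hpf and 102, 98.3 and 96.2 CPM at 12hpf. Zic2a fell by 0.49 on the log2 scale (SE 0.075, adjusted p = 3.73e-05), which passed the adjusted p but is under 1.5-fold, so that it was not called. The 2 copies of the ancestral zic2 therefore changed in ratio: zic2a counts per 100 zic2b counts were 15.2, 14.1 and 15.4 in the 6hpf control libraries and 31.8, 32.0 and 32.6 at 12hpf. Reads shared between the copies could be split by RSEM, whose values for zic2a were whole numbers in 8 of 12 libraries and for zic2b in 1 of 12.

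**Figure D1:**
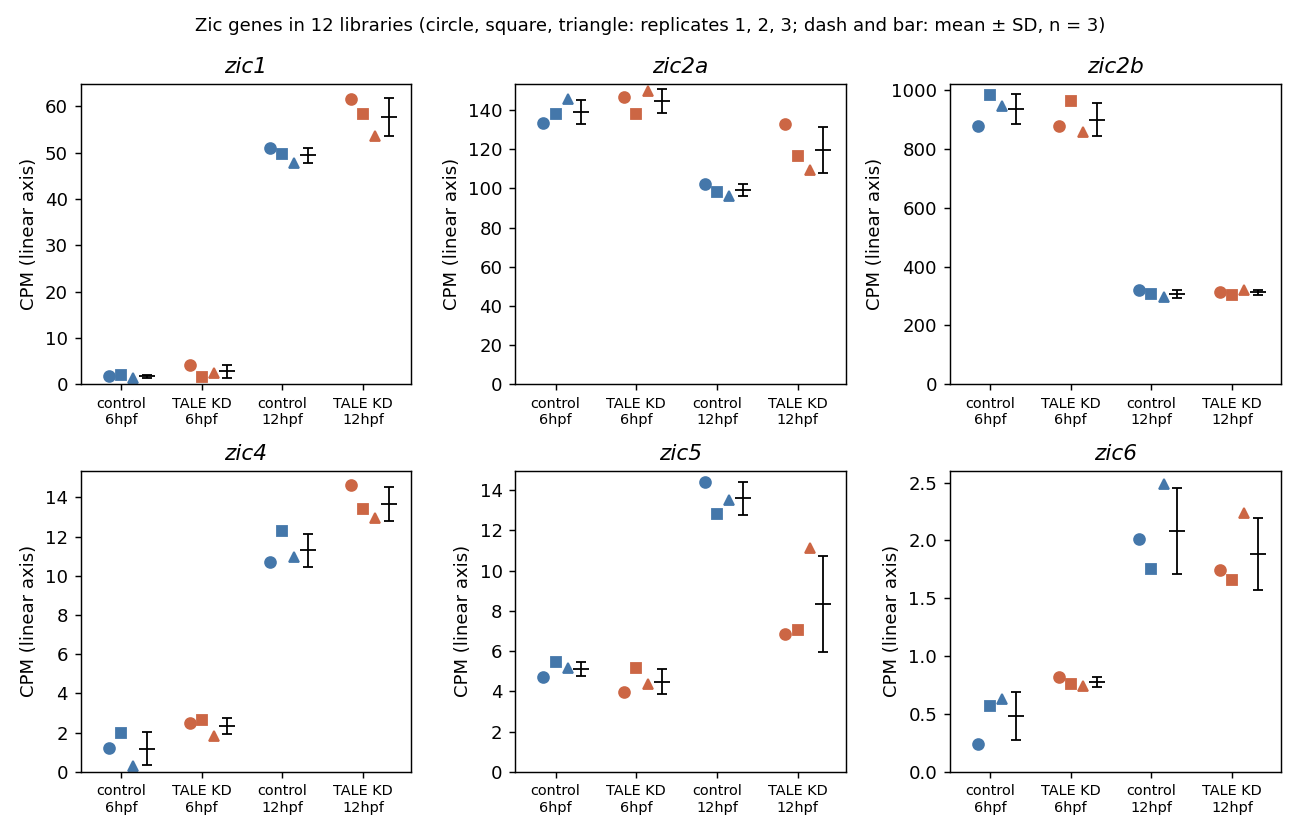
Level of each Zic gene in all 12 libraries (y axis: CPM with TMM scaling, linear from 0, a scale of its own for each gene; x axis: the 4 groups; symbols: replicates 1 to 3; dash and bar: mean ± SD, n = 3). Zic1, zic4, zic5 and zic6 are higher at 12hpf and zic2a and zic2b lower, and zic5 at 12hpf lies at 12.8 to 14.4 CPM in control and 6.84 to 11.1 CPM in TALE KD libraries.

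TALE KD embryos went through the same directions of change. Again 5 of the 6 members were called between the stages, 4 higher and 1 lower. Of all genes 56.6% were called, 31.5% higher and 25.1% lower. Zic1 rose by 4.35 ± 0.19 (SE) on the log2 scale (adjusted p = 1.84e-10), zic4 by 2.54 ± 0.28 (adjusted p = 1.54e-06), zic5 by 0.90 ± 0.19 (adjusted p = 7.12e-04) and zic6 by 1.28 ± 0.29 (adjusted p = 0.00128). Zic2b fell by 1.52 (SE 0.064, adjusted p = 1.03e-10). Zic2a fell by 0.28 on the log2 scale (SE 0.074, adjusted p = 0.00407), again under 1.5-fold. With library totals in place of TMM factors, the median change of all genes moved from 0.086 to 0.32 in TALE KD and from 0.087 to 0.33 in control embryos, and zic2a then stood at -0.041 (adjusted p = 0.584) and -0.25 (adjusted p = 0.00377). Its small drop in TALE KD embryos thus depends on the scaling, while the other 5 members kept direction and call under each scaling run.

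For 4 of the members the fitted rise was smaller in TALE KD than in control embryos, but the difference between the knockdown effects at the stages did not pass for any member. It was -0.44 ± 0.32 (SE) on the log2 scale for zic1 (adjusted p = 0.744), 0.22 ± 0.11 for zic2a (adjusted p = 0.601), 0.080 ± 0.088 for zic2b (adjusted p = 0.857), -0.70 ± 0.44 for zic4 (adjusted p = 0.675), -0.51 ± 0.27 for zic5 (adjusted p = 0.620) and -0.81 ± 0.45 for zic6 (adjusted p = 0.625). Over all genes 0.0349% passed this test in edgeR, 4 of 11450. The unadjusted p was above 0.05 for all 6 members, where 8.67% of all genes were under it. The count of members was also 0 with DESeq2's Wald test and with the block for replicate number, in which the unadjusted p of zic5 was 0.0486 and that of zic2a 0.0221. For zic6 the difference rests on only 3 to 11 counts a library at 6hpf.

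**Figure D2:**
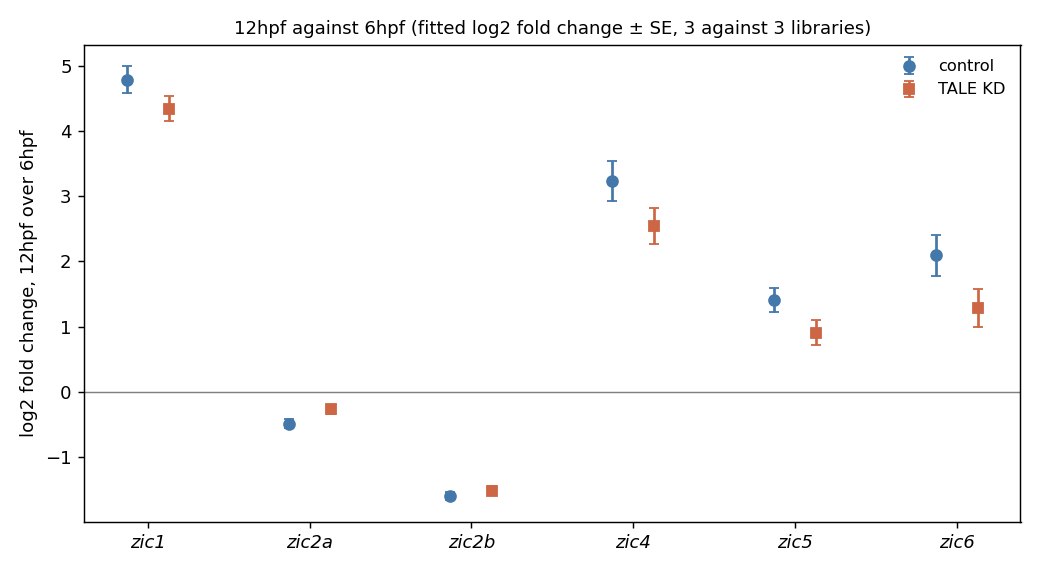
Change of each Zic gene from 6hpf to 12hpf (y axis: fitted log2 fold change, 12hpf over 6hpf; bars: SE; circles: control; squares: TALE KD; 3 against 3 libraries each). Zic1 is at 4.79 in control and 4.35 in TALE KD embryos, zic5 at 1.41 and 0.90, and zic2b lies near -1.5 to -1.6 in both.

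At 12hpf none of the 6 members was called between TALE KD and control by the test used here. By level, zic5 was below every control library in TALE KD and zic1, zic2a and zic4 were above, and the groups overlapped for zic2b and zic6. No test compared the members' responses with each other. Beside these 0 calls, 1.55% of the 11640 genes tested were called, 1.26% lower and 0.292% higher. Groups without overlap were found for 4 of the 6 members, 1 lower and 3 higher, beside 15.8% of all genes lower and 16.9% higher. An unadjusted p under 0.05 was found for 4 of the 6, beside 27.1% of all genes. The median log2 fold change was 0.11 over the 6 members and -0.0033 over all genes tested.

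Zic5 showed the largest change of the 6. Control libraries held 14.4, 12.8 and 13.5 CPM (388, 336 and 326 counts) and TALE KD libraries 6.84, 7.06 and 11.1 CPM (145, 306 and 506 counts). All 3 TALE KD libraries lay below all 3 control libraries, and TALE KD replicate 3 was nearest to them. The mean was 13.6 ± 0.801 CPM in control and 8.33 ± 2.40 CPM in TALE KD embryos, and the fitted change was -0.71 ± 0.18 (SE) on the log2 scale, 1.63-fold lower, with an adjusted p of 0.0465 that misses the threshold. The size of the change was larger than that of 94.3% of the genes tested.

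The call for zic5 differed between fits. With the replicate number as a block, zic5 stood at -0.73 ± 0.13 (SE) on the log2 scale (adjusted p = 0.00221) and was called, as were 3.31% of all genes in that direction. DESeq2's Wald test also called it (-0.70, adjusted p = 0.00448). Without TALE KD replicate 3 the change was -0.98 (adjusted p = 7.25e-04), and without replicate 3 of both groups it was -0.98 (adjusted p = 4.04e-07). Over all genes the number called moved with the fit too: 181 in the main test and 20 to 472 with 1 library left out. That number was above 181 with DESeq2's Wald test and without replicate 3 of both groups, as given at the end. TALE KD replicate 3 held the highest zic5 level of its group, so leaving that library out enlarges the drop. Zic5 was lower under all 13 alternatives run, with log2 fold changes of -0.98 to -0.58, and was called under 4 of them, with adjusted p between 4.04e-07 and 0.167.

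Zic2a, whose gene adjoins zic5, did not lie lower with it. Control libraries held 102, 98.3 and 96.2 CPM and TALE KD libraries 133, 117 and 110 CPM, so that the knockdown libraries lay above the control libraries without overlap. The change was 0.26 ± 0.074 (SE) on the log2 scale (adjusted p = 0.0650). With the block its adjusted p was 0.00310, as for 13.7% of all genes, but at under 1.5-fold it was not called. Without replicate 3 of both groups the change was 0.29 (adjusted p = 2.14e-04), again under 1.5-fold.

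Since the scaling of a library cancels within it, the neighbours can also be set against each other as counts. Control libraries at 12hpf held 14.1, 13.1 and 14.0 zic5 counts per 100 zic2a counts, and TALE KD libraries 5.15, 6.06 and 10.1. The groups did not overlap, with means of 13.7 ± 0.586 and 7.12 ± 2.65, a log2 ratio of -1.01 (exact permutation test, two-sided p = 0.1, the smallest that 3 against 3 libraries allow). At 6hpf the same ratio was 3.55, 3.94 and 3.54 in control and 2.70, 3.73 and 2.91 in TALE KD libraries, which overlapped (exact permutation test, two-sided p = 0.3). The ratio of zic2a to zic2b counts at 12hpf was 32.1 ± 0.418 per 100 in control and 38.3 ± 4.13 in TALE KD libraries, without overlap (exact permutation test, two-sided p = 0.1). Since zic5 lay lower and zic2a higher without overlap, the gap in their ratio follows from those levels and is no further evidence, and the ratios are given as a description.

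**Figure D3:**
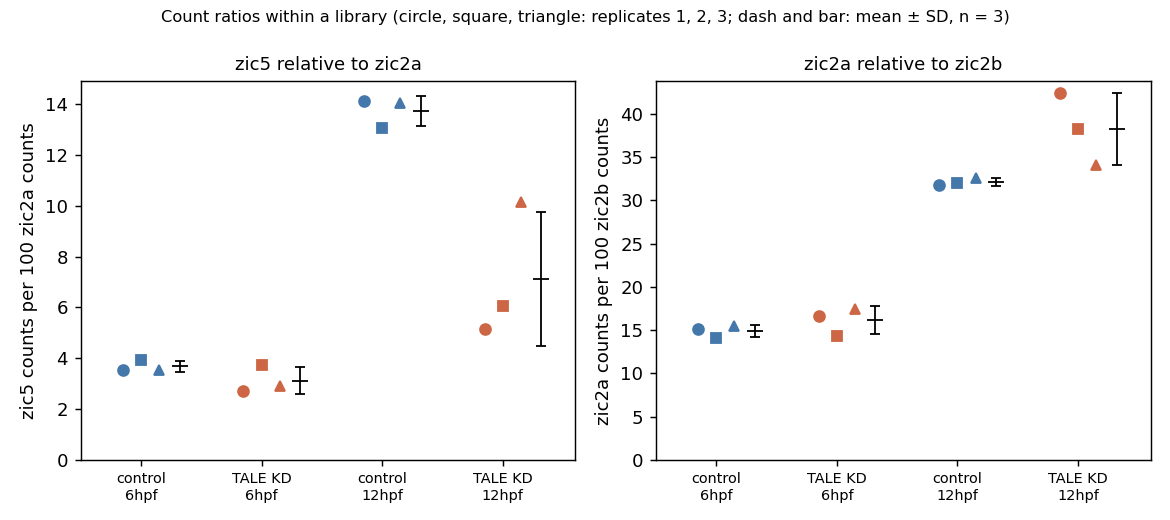
Counts of one Zic gene per 100 counts of another in the same library (left: zic5 per zic2a; right: zic2a per zic2b; linear axes from 0; x axis: the 4 groups; symbols: replicates 1 to 3; dash and bar: mean ± SD, n = 3). At 12hpf zic5 stands at 13.1 to 14.1 per 100 zic2a counts in control and 5.15 to 10.1 in TALE KD libraries, with replicate 3 highest.

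Zic1 held 51.0, 49.6 and 47.8 CPM (control) against 61.7, 58.3 and 53.5 CPM (TALE KD) at 12hpf. The groups did not overlap, and the change was 0.21 ± 0.064 (SE) on the log2 scale (adjusted p = 0.0801). Zic4 held 10.7, 12.3 and 10.9 CPM (control) against 14.6, 13.4 and 12.9 CPM (TALE KD), a change of 0.25 ± 0.093 (adjusted p = 0.127). Neither passed, and with the block their adjusted p was 0.0109 and 0.0640. Without replicate 3 of both groups zic1 stood at 0.24 (adjusted p = 0.00141), under 1.5-fold and not called, and zic4 at 0.27 (adjusted p = 0.0414). For zic1, zic2a and zic4 alike, the TALE KD library nearest to the control libraries was replicate 3, as for zic5. Replicate 3 was also the lowest control library for zic1 and zic2a (47.8 and 96.2 CPM), but not for zic4. Whether these members responded less in that library was not tested.

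Zic2b differed by less than the spread between replicates at 12hpf. Its control libraries held 321, 307 and 295 CPM and its TALE KD libraries 313, 305 and 321 CPM, with a change of 0.0092 ± 0.048 (SE) on the log2 scale (adjusted p = 0.934). The sign of a value this near 0 has no weight: it was -0.036 without replicate 3 of both groups (adjusted p = 0.500). Zic6 held 2.01, 1.76 and 2.49 CPM (control) against 1.75, 1.66 and 2.24 CPM (TALE KD), on 37 to 102 counts. The groups overlapped, the change was -0.15 ± 0.22 (adjusted p = 0.709), and it was -0.17 without replicate 3 of both groups (adjusted p = 0.620). The change over all 6 libraries was smaller than its SE.

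**Figure D4:**
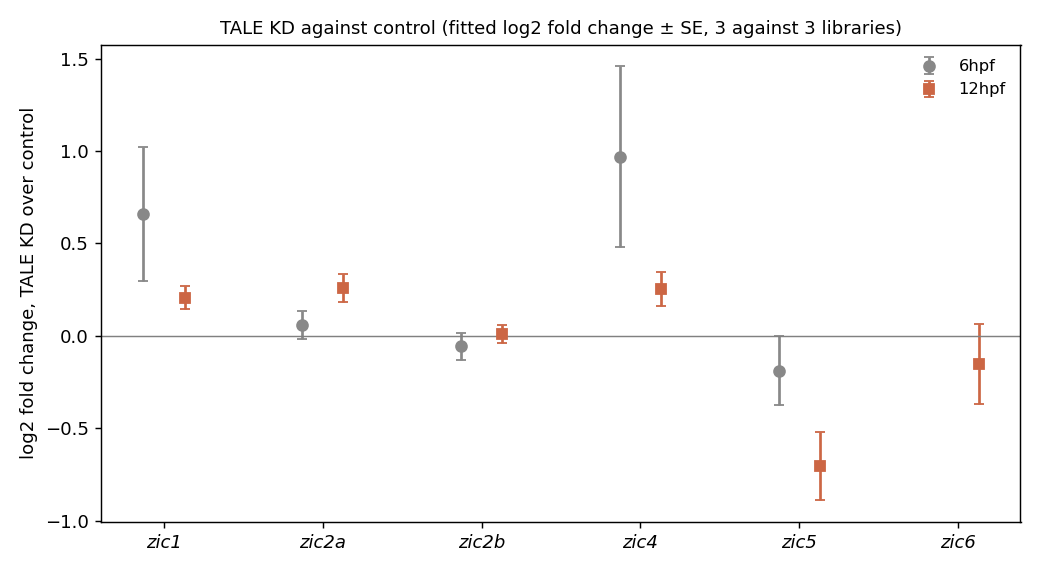
Effect of TALE KD on each Zic gene at 6hpf and 12hpf (y axis: fitted log2 fold change, TALE KD over control; bars: SE; circles: 6hpf; squares: 12hpf; 3 against 3 libraries at each stage; zic6 was not tested at 6hpf). Zic5 is at -0.71 at 12hpf and -0.19 at 6hpf, and the wide bars of zic1 and zic4 at 6hpf rest on 4 to 57 counts a library.

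At 6hpf none of the 5 members tested was called, and 0.0392% of the 10202 genes tested were, 4 genes in edgeR. DESeq2's Wald test and the block also called none of the 5, and none had an unadjusted p under 0.05, where 5.66% of all genes did. Zic2b held 878, 981 and 943 CPM (control) against 878, 962 and 855 CPM (TALE KD), and its change was -0.055 ± 0.073 (SE) on the log2 scale (adjusted p = 0.998). Zic2a held 133, 138 and 146 CPM (control) against 147, 138 and 149 CPM (TALE KD), with a change of 0.058 ± 0.075 (adjusted p = 0.998). Both are deeply counted at this stage, and their groups overlapped.

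Zic5 at 6hpf held 4.73, 5.44 and 5.16 CPM (control) against 3.96, 5.14 and 4.34 CPM (TALE KD). The change was -0.19 ± 0.19 (SE) on the log2 scale (adjusted p = 0.998), and the groups overlapped. Zic1 held 1.85, 2.07 and 1.41 CPM (control) against 4.26, 1.66 and 2.50 CPM (TALE KD), a change of 0.66 ± 0.36 (adjusted p = 0.983) that was 0.21 without TALE KD replicate 1. Zic4 held 1.204, 2.00 and 0.313 CPM (control) against 2.47, 2.65 and 1.85 CPM (TALE KD), a change of 0.97 ± 0.49 (adjusted p = 0.935), with 4 counts in the lowest library. Changes of zic1 and zic4 were larger in size than those of 98.2% and 99.6% of genes, at levels where few reads set the value. Zic6, with 0.241, 0.572 and 0.626 CPM (control) against 0.823, 0.756 and 0.739 CPM (TALE KD), was under the mean of 10 counts required and was not tested. Its TALE KD libraries lay above its control libraries, but on only 3 to 11 counts a library.

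Across the 12 libraries the levels followed the stages. The log2 CPM of zic1 correlated with that of zic4 (Pearson r = 0.94), zic6 (0.91) and zic5 (0.82), and inversely with zic2b (-0.99) and zic2a (-0.81). Between the neighbours zic5 and zic2a it was -0.96. These are descriptions over 12 libraries that share 2 stages, and genes that change over time correlate in such a design.

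The genes with the most similar pattern by the same measure were eps8l1, nkx2.2b and jun for zic1 (r = 0.996 to 0.997), srsf11, sox17 and prp19 for zic2a (0.967 to 0.972), and osbpl7, hsd17b10 and gna13b for zic2b (0.998). For zic4 they were hexdc, trpm4a and flad1 (0.985 to 0.989), for zic5 sptlc2a, egfl7 and mmp14a (0.979 to 0.980), and for zic6 ston2, slc4a1b and fbxl16 (0.978 to 0.984). These similarities follow the stages shared by the libraries, and a single similar gene does not place a member in a tissue. Among the genes named, sox17 (for zic2a) is an endoderm factor and egfl7 (for zic5) a gene of blood vessel cells. Of the markers of those tissues none of 6 was called at 12hpf in edgeR (adjusted p 0.0420 to 0.944). The block called sox17 and sox32 higher and etv2, tal1 and gata1a lower. Over all genes it called 3.31% lower, and its share called higher is not reported here. The summed level of the 3 endoderm markers sox17, sox32 and foxa2 was 52.9 to 56.7 CPM in control and 56.7 to 67.3 CPM in TALE KD libraries, and that of the 3 blood and vessel markers etv2, tal1 and gata1a was 83.3 to 94.3 and 17.4 to 59.6 CPM. Foxa2 made up most of the endoderm sum, with means of 50.0 CPM in control and 50.3 CPM in TALE KD embryos. Sox17 held 3.41 ± 1.05 CPM in control and 7.60 ± 2.93 CPM in TALE KD embryos, and sox32 1.64 ± 0.563 and 4.76 ± 2.26 CPM. The part of these tissues, and of the hindbrain with its lower markers, in the levels of zic2a and zic5 was not tested.

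A set of 5 lists of genes related to the Zic factors by family or territory gives the setting of the members at 12hpf. The Gli and Glis factors share the type of zinc finger, and the Gli factors, with Sufu, carry the response to Hedgehog signals. Of 10 genes listed 7 were in the tables and 6 were tested, and none was called in edgeR, with values between -0.24 and 0.20 and 3 of 6 at an unadjusted p under 0.05, beside 27.1% of all genes. DESeq2 and the block called none of them either. The lowest value was that of sufu, -0.24 ± 0.051 (SE) on the log2 scale (adjusted p = 0.0236), and the highest that of gli1, 0.20 ± 0.060 (adjusted p = 0.0735). Of the 6 genes 4 were below 0, and a change in Hedgehog signalling was not tested.

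Of 22 genes of the neural plate border and early crest, where several Zic genes are expressed, 21 were tested, 1 was called lower and 1 higher, beside 1.26% and 0.292% of all genes. The homeobox gene dlx4b, expressed along the anterior border, held 14.1 ± 1.40 CPM in control and 8.65 ± 0.348 CPM in TALE KD embryos (-0.72 ± 0.10 (SE) on the log2 scale, adjusted p = 0.00531). The bHLH factor olig3, a gene of dorsal neural progenitors, held 13.4 ± 0.955 and 23.5 ± 1.90 CPM (0.80 ± 0.089, adjusted p = 0.00250). The median of the list was -0.17, and 10 of 21 had an unadjusted p under 0.05 in edgeR, beside 27.1% of all genes. With the block 4 were called lower, beside 3.31% of all genes, adding gbx2, sox9b and sox10.

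Among 16 neural plate genes, all tested, 2 were called lower and none higher, beside 1.26% and 0.292% of all genes, and the block called 3 lower, beside 3.31%. The SoxB1 factor sox1a held 11.6 ± 0.222 CPM in control and 7.66 ± 0.253 CPM in TALE KD embryos (-0.61 ± 0.086 (SE) on the log2 scale, adjusted p = 0.00565), and the SoxB2 factor sox21a 18.9 ± 0.667 and 10.2 ± 0.849 CPM (-0.90 ± 0.088, adjusted p = 0.00167). The median was -0.24, beside -0.0033 over all genes tested, and 11 of 16 had an unadjusted p under 0.05 in edgeR, beside 27.1%. The general neural plate markers sox2, sox3 and sox19a, summed, were 743 to 754 CPM in control and 613 to 643 CPM in TALE KD libraries, and none of the 3 was called.

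Of 26 genes of canonical Wnt signalling, all tested, 1 was called lower and none higher, beside 1.26% and 0.292% of all genes. It was sp8a, a zinc finger factor that carries Wnt responses, at 14.5 ± 0.381 CPM in control and 5.19 ± 0.585 CPM in TALE KD embryos (2.83-fold lower, SE 0.11 on the log2 scale, adjusted p = 5.35e-04). The median of the list was 0.056, and 12 of the 26 were below 0. For 13 of the 26 the unadjusted p in edgeR was under 0.05, beside 27.1% of all genes. Of 24 genes of the forebrain and of holoprosencephaly, 21 were tested and none was called in edgeR, with 11 of 21 at an unadjusted p under 0.05, beside 27.1% of all genes. The block called 4 of them lower, beside 3.31% of all genes. DESeq2 called 3, and over all genes it also called more than edgeR, with the count given at the end. Its share of the genes tested is not reported here. Values of the list ran from -1.70 to 0.46, with a median of -0.071 and 13 of 21 below 0. The lowest was that of the eye field gene rx2 (SE 0.39, adjusted p = 0.0307, and 2.85e-04 with the block). Its mean was 4.01 CPM in control and 1.19 CPM in TALE KD embryos. The highest was that of shhb (SE 0.067, adjusted p = 0.00617), which passed the adjusted p but is under 1.5-fold. The 5 lists together held 5 called genes, beside 1.55% of all 11640 genes tested. The block raised this to 14, beside 3.31% of all genes called lower. Without control replicate 1 or 2, or without TALE KD replicate 1 or 2, a single one, sp8a, was called. Without control replicate 3 the number was 4, and without TALE KD replicate 3 it was 17. Over all genes the number called moved too, from 181 to between 20 and 472 with 1 library left out.

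**Figure D5:**
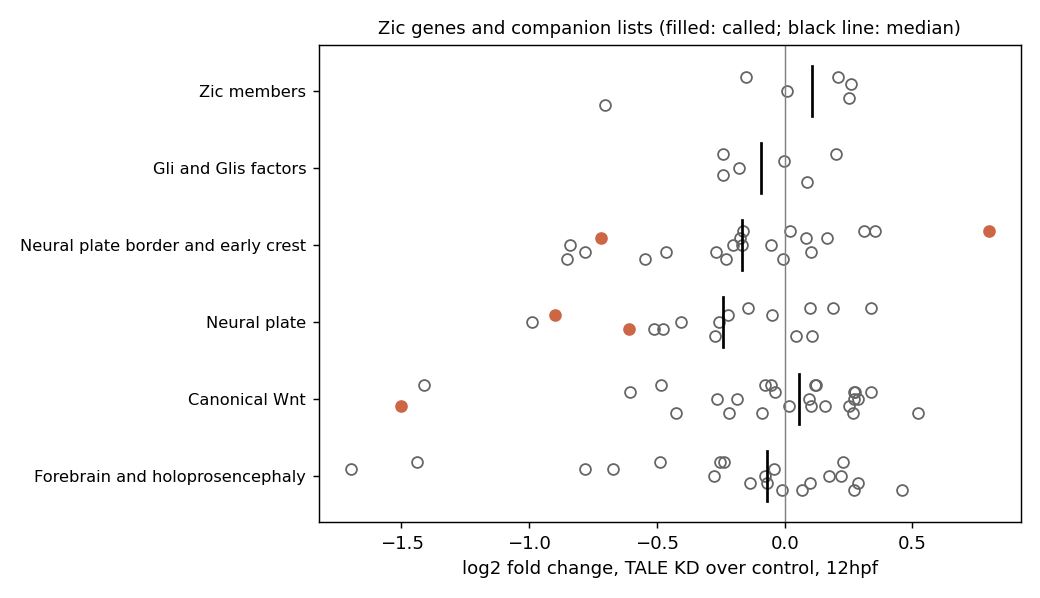
Log2 fold change of the 6 Zic genes and of 5 lists of related genes, TALE KD over control at 12hpf (x axis; each circle is a gene, filled where called; black line: median of the list; rows are spread only for sight). Zic5, at -0.71, has the lowest value of the 6 members, which no test compared with each other. The called genes are dlx4b, olig3, sox1a, sox21a and sp8a.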

How the data were processed

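Reads of polyA-selected, stranded TruSeq libraries were trimmed, filtered and aligned to the transcriptome by the authors, whose processing notes name FastQC, RSEM 1.2.28, DESeq2 and the build GRCz10 (danRer10). The deposited tables, one per stage, are named for TPM, but per their values they hold estimated counts from RSEM, not normalized: columns sum to 11884808 to 40924971, and 75.4% to 80.0% of values are whole. The estimated counts were rounded.

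Genes whose mean over the libraries of a fit reached 10 counts were tested with edgeR 4.0.16 (glmQLFit, glmQLFTest, TMM factors) in R 4.3.3. TALE KD was compared with control within each stage (3 against 3 libraries). Stage changes and their difference came from 1 fit over 12 libraries. SE is the fitted log2 change divided by the square root of F. The edgeR comparisons of TALE KD with control at each stage, of the stages in control embryos and of the difference were tested on simulated data. The stage comparison in TALE KD embryos and the alternatives were not. CPM used the 12-library TMM factors (0.903 to 1.11). Replicates of a group differed by more than sampling noise (chi-square per degree of freedom 2.68 to 24.6), so none was counted as a duplicate.

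The labels give replicate numbers but do not say whether libraries were paired. Deviations from the group means correlated by 0.233 to 0.542 between control and TALE KD libraries of the same number within a stage, and by -0.40 to 0.25 otherwise. At 6hpf the same-numbered pairs stood at 0.233 to 0.344 and all other pairs below 0, at -0.26 to -0.042. At 12hpf pair 3 stood at 0.542. There control 1 with TALE KD 2 (0.250) and control 2 with TALE KD 1 (0.231) came near the same-numbered pairs 1 (0.294) and 2 (0.315). At both stages each library correlated most with the library of its own number in the other group. Such deviations cancel within a group, which pushes the other correlations down. Pairing was thus neither established nor excluded. The main test used no block, and results with the block are given beside it. Between the stages same-numbered libraries correlated by -0.079 to 0.00065.

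The members and lists were chosen with earlier results of these data known. Named are the 6 members, the morpholino targets, from each list at most 4 genes called at 12hpf in each direction, and the 3 genes most correlated with each member. Other genes named (gli1, sufu, gbx2, sox9b, sox10, rx2, shhb and the marker genes) were chosen after their values were seen. Alternatives were library totals, DESeq2 1.42.0 size factors, DESeq2's Wald test, no filter, the replicate block, leaving out each library or replicate 3 at 12hpf, and fits over other sets of libraries.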

Additional observations from a re-analysis of the deposited data

How the results depend on the processing

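Of 462 values of the members over all comparisons and alternatives, 454 kept direction and call. The number of Zic members called in TALE KD against control at 12hpf was 0, and 1 with DESeq2's Wald test, 1 with the replicate block, 1 without replicate 3 of both groups at 12hpf, and 0 to 1 when each library was left out in turn. The member was zic5 each time: -0.70 with DESeq2, -0.73 with the replicate block, -0.98 without TALE KD replicate 3 and -0.98 without replicate 3 of both groups. Over the 5 companion lists 5 genes were called, 11 with DESeq2's Wald test, 14 with the replicate block, 17 without replicate 3 of both groups, and 1 to 17 with 1 library left out. Over all genes at 12hpf, 181 were called, 326 with DESeq2's Wald test, 476 with the replicate block, 729 without replicate 3 of both groups and 20 to 472 with 1 library left out. At 6hpf 4 genes were called, 28 with DESeq2's Wald test, 23 with the replicate block, 10 without a filter, 15 in the fit over 12 libraries and 0 to 1 with 1 library left out. The difference between the stages gave 4, 64 with DESeq2's Wald test, 37 with the replicate block, 25 without replicate 3 of both groups at 12hpf and 2 to 21 with 1 library left out. Zic2b at 12hpf ranged from -0.019 to 0.039 with 1 library left out, below 0 for replicate 3 of either group (-0.010 where it was the TALE KD one), and was -0.036 with both removed. The difference of zic1 between the stages ranged from -0.74 to 0.027, above 0 only when TALE KD replicate 1 at 6hpf was left out. The causes were not tested. The block changed no other call of a member. Depth limits zic1, zic4 and zic6 at 6hpf, with 18 to 57, 4 to 35 and 3 to 11 counts a library.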
